A study of Mus musculus with 11 samples.

Results

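The 300 bp peaks on the autosomes, the narrowest class in the list of GFP pull-down peaks from sonicated chromatin, are described here. They were selected on 2 values, a position on chromosomes 1 to 19 and a peak width of exactly 300 bp, and number 1144 of the 1646 autosomal peaks and of the 2196 peaks in the whole list. The sonication experiment has 6 libraries of female mouse neural stem cells, derived from C57BL/6 embryos at E14.5 and kept for up to 20 passages. Of these, 2 were anti-GFP pull-downs from cells homozygous for a knock-in allele that fuses GFP to Smchd1 (Smchd1 GFP/GFP), 2 were the same pull-down from wild-type cells, which have no tag, and 2 were whole cell extract. All 6 were cross-linked with formaldehyde and sonicated for 30 min in non-ionic detergent. A second list, used for comparison, belongs to an experiment with 5 libraries of chromatin cut with micrococcal nuclease (MNase): 1 male and 1 female Smchd1 GFP/GFP pull-down, 1 male and 1 female wild-type pull-down and 1 female whole cell extract. Cells of the MNase libraries also came from E14.5 embryos and were kept for up to 20 passages. Each experiment has 1 list of positions, and how its libraries entered that list is not stated, so no level, replicate spread or sequencing depth can be given for a single peak. The cells could not be checked for neural stem cell markers, since no expression was measured.

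Smchd1 is a chromatin protein with the hinge domain of the SMC family and an ATPase domain, and it works as a homodimer. It is known for keeping genes silent on the inactive X chromosome, in the Hox and clustered protocadherin loci and at some imprinted genes. A peak is a stretch where reads pile up above a threshold. In this list peaks begin on a grid of 150 bp, so 300 bp is 2 grid steps, and a peak of this size gives the position of an enrichment but no shape. The genes near the peaks, their overlap with the MNase list and the sequence of nearby promoters took no part in the choice of these peaks.

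A promoter window runs from 250 bases before to 50 bases after a gene's start. Of the 1091 minimum-width peaks on the 18 autosomes of the promoter table, 4 touched one. Their promoters are shown because 3 of the 4 have almost no CpG dinucleotides, the site of DNA methylation in mammals. The 250 bases before the start are given 5′ to 3′ on the gene's strand, from RefSeq on GRCm38.p6, with each CpG in capitals. Muc16 (minus strand, chr9:18674604-18674853) encodes a cell-surface mucin, and 97 of the bases shown lie in the peak. The start used for Muc16 lies inside its annotated span, which ends at 18674821, so most of the stretch shown is within that span. Ccr1 (minus strand, chr9:123968693-123968942) encodes a chemokine receptor of white blood cells, and 8 bases lie in the peak, which continues into the gene. For 4930405D01Rik (plus strand, chr16:52828563-52828812), an uncharacterised gene, 12 bases lie in the peak. Elavl4 (minus strand, chr4:110351912-110352161) encodes a neuronal RNA-binding protein, and 11 bases at the far end lie in the peak. Msx1 (minus strand, chr5:37824586-37824835), a homeobox gene, is shown for contrast, chosen after the values were seen: a wider sonication peak of 1200 bp covers all 250 bases.
Muc16: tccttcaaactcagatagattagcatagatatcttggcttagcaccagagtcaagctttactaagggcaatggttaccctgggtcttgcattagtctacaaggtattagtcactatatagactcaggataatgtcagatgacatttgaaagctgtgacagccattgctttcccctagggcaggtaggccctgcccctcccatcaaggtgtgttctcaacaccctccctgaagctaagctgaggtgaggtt
Ccr1: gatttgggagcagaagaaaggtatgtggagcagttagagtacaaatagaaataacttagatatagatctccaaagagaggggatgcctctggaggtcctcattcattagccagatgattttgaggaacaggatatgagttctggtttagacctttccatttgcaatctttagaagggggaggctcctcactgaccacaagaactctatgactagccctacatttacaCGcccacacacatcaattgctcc
4930405D01Rik: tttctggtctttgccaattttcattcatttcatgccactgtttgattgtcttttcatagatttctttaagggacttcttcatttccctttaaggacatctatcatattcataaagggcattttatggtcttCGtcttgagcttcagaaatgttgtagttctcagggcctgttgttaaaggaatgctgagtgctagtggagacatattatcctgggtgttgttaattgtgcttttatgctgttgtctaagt
Elavl4: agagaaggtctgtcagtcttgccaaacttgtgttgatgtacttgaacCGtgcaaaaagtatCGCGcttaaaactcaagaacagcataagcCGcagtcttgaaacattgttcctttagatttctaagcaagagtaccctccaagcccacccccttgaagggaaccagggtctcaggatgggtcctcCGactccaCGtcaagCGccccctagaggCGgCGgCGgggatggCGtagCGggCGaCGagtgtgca
Msx1: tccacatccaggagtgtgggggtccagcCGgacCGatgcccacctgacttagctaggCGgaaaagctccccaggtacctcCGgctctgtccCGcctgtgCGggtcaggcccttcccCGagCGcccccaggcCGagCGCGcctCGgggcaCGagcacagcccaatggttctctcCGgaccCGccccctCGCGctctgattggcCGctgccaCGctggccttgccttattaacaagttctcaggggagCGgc
The stretch before Muc16 holds 0 CpG, those before Ccr1 and 4930405D01Rik hold 1 each, that before Elavl4 holds 14 and that before Msx1 holds 20. Over the whole window of 300 bases, the ratio of observed to expected CpG was 0.0612 for Muc16, 0.0689 for Ccr1, 0.0988 for 4930405D01Rik, 0.944 for Elavl4 and 0.794 for Msx1. Promoters at wider peaks were of both kinds: the 17 windows touched by 16 wider peaks had a median ratio of 0.848, with 11 at or above 0.6 and others as low as 0 (the predicted gene Gm31115), 0.0832 (the odorant receptor gene Olfr541) and 0.197 (Cd300ld). The share of minimum-width peaks that touched a promoter window was 0.367% (95% Wilson interval 0.143% to 0.939%). Among all positions of a 300 bp window on the same grid and chromosomes, 0.725% touch one, a share inside that interval. Of the wider autosomal sonication peaks, those above 300 bp, 16 of 481 did (3.33%, interval 2.06% to 5.34%). All intervals cover counting error only.

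Promoters within 5 kb of a narrow peak also had few CpG, a comparison given here as a description with no test. With a limit of 5 kb between the start of a gene and a peak, 74 promoter windows of 68 genes lay near a minimum-width peak. Their median observed to expected ratio was 0.245, against 0.388 over all 31360 windows, 0.621 for the 71 windows near wider sonication peaks and 0.672 for the 865 near MNase peaks. A ratio of at least 0.6, a usual mark of a CpG island, was reached by 13 of the 74 (17.6%), by 36.4% of all windows, by 50.7% of those near wider peaks and by 58.4% of those near MNase peaks. Their median GC content was 43.3%, and 53.0% over all windows. Of the 12 windows with the start within 1 kb of a minimum-width peak, the one above 0.6 belonged to Elavl4. The other 11 lay between 0 (the predicted gene Gm35822) and 0.388 (Tcaf3, which encodes a protein associated with TRP channels). Promoters of 1 gene share most of their bases, so the windows are not independent.

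**Figure D1:**
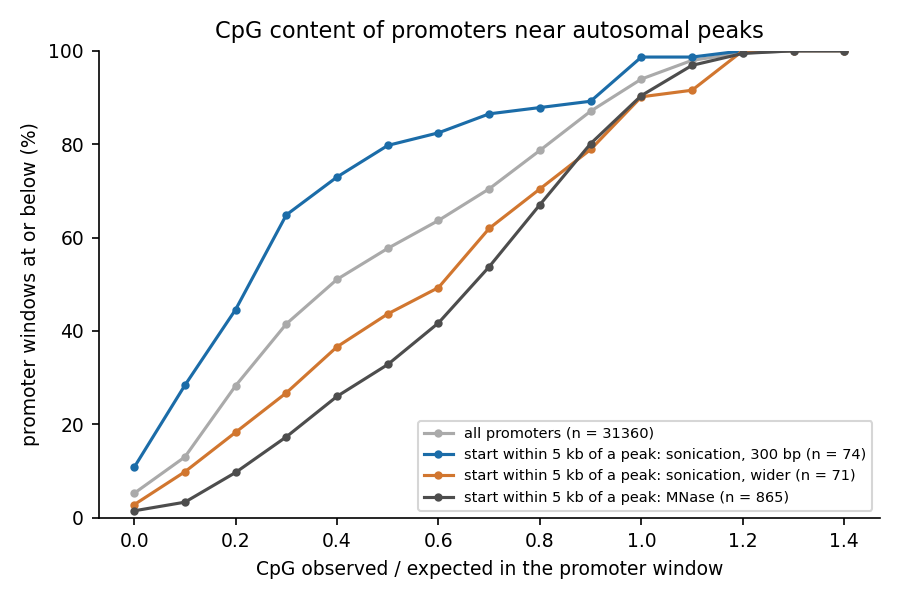
Cumulative share of promoter windows (y axis, %) by ratio of observed to expected CpG (x axis), for all autosomal windows and for those whose start lies within 5 kb of a peak of each class. The curve of the 300 bp sonication peaks lies above the others at ratios from 0.1 to 1, with 82.4% of windows at or below 0.6.

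The narrowest peaks were the most frequent. Peaks of 300 bp made up 69.5% of the autosomal list. Just outside the limit lay 319 peaks of 450 bp and then 116 of 600 bp, and 67 were wider. Of the 450 bp peaks, 0.627% overlapped an MNase peak, against 0.262%, and 1.57% came within 1 kb of the boundary of a coding gene, against 1.40% at 300 bp. They lay more than 200 kb from any coding gene in 19.1% of cases (interval 15.2% to 23.8%), against 27.8% (25.3% to 30.5%) at 300 bp. At 750 bp or more, 53.7% overlapped an MNase peak and 32.8% came within 1 kb of a coding boundary. The class of wider peaks therefore mixes 450 bp peaks with a small group of broad ones. Width itself also depends on how the list splits a stretch, since 12 of the 1144 peaks adjoined another 300 bp peak, and 5 a wider one, with no base between them.

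**Figure D2:**
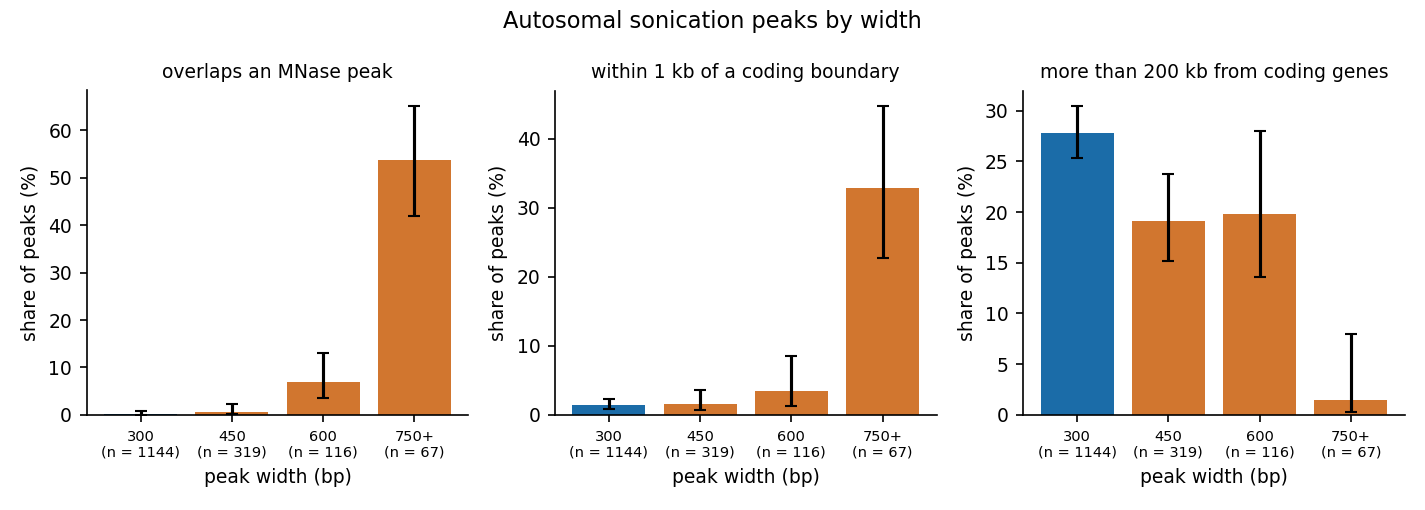
Share of autosomal sonication peaks (y axis, %) by peak width (x axis, bp) that overlap an MNase peak, lie within 1 kb of a coding gene boundary, or lie more than 200 kb from coding genes. Bars give the share and lines the 95% Wilson interval, with 1144, 319, 116 and 67 peaks from left to right, and the first 2 measures are highest at 750 bp or more.

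Almost none of the minimum-width peaks had a counterpart in the MNase experiment. An MNase peak was overlapped by 3 of 1144 (0.262%, interval 0.0892% to 0.768%), whereas 46 of the 502 wider peaks had an overlap (9.16%, interval 6.94% to 12.01%). The difference, -8.90 percentage points, was larger than counting error (Fisher's exact test, two-sided, p = 2.94e-21; Benjamini-Hochberg adjusted p = 1.47e-20 over 5 tests; odds ratio 0.0261, 95% interval 0.00517 to 0.0819). Peaks are positions in a list and not replicates, so this test, like the other 4 run, compares lists and not cells. Of all 300 bp windows on the grid, 0.0899% overlap an MNase peak, a share inside the interval of the minimum-width peaks. Without the 4 Hox clusters, which hold 23 of the wider peaks and none of the narrow ones, the wider share was 4.80% and the adjusted p = 2.21e-09 (Fisher's exact test). The experiments differed in fragmentation and in the sex of the cells, and the part of either in the result was not tested.

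The 3 shared positions were at genes of different kinds. The first, from 19205551 to 19205850 on chromosome 1 in mm10, lay outside genes, 3058 bp from the annotated span of Tfap2b, which encodes an AP-2 transcription factor of neural crest and kidney. It lay at the edge of an MNase peak of 1500 bp, and 5 MNase peaks lay within 50 kb of it. The second, from 146926201 to 146926500 on chromosome 4, lay inside the long span of the zinc finger gene Zfp993, where the MNase peak was 450 bp wide. The third, from 72568651 to 72568950 on chromosome 15, lay in an MNase peak of 1350 bp and 20.0 kb from Kcnk9, an imprinted gene for a potassium leak channel. All 3 were wholly inside the MNase peak. A further narrow peak, from 62875651 to 62875950 on chromosome 7, came within 1 kb of an MNase peak of 1050 bp and was 51908 bp from the coding gene A26c2. Over all 1144 peaks, these 4 included, the median distance to the nearest MNase peak was 405 kb (quartiles 143 and 873 kb), against 434 kb for all windows and 348 kb for wider peaks.

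Ends of coding genes were rarely marked. Within 1 kb of either boundary lay 16 of 1144 minimum-width peaks (1.40%, interval 0.863% to 2.26%) and 31 of 502 wider ones (6.18%, interval 4.38% to 8.63%). That difference passed the test (Fisher's exact test, two-sided, p = 4.19e-07; adjusted p = 1.05e-06; odds ratio 0.216, 95% interval 0.109 to 0.411). Without the Hox clusters the wider share was 3.13% and the difference -1.73 points (Fisher's exact test, p = 0.0274, adjusted p = 0.0457). That adjustment kept the other tests at their main p-values. Adjusting all tests without the Hox clusters together would be stricter and was not run, so this pass rests on the mixed adjustment. For all windows on the grid the share was 3.52%, and for MNase peaks 17.8%. Gene starts, known for 18 autosomes, gave a similar picture: 0.917% of minimum-width peaks, 4.57% of wider peaks, 15.4% of MNase peaks and 2.62% of windows lay within 1 kb of one.

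The 16 genes at these peaks were of many kinds. Of the 16 peaks, 7 were at the 5′ end of the gene, 6 at the 3′ end, and 3 at genes whose strand the promoter table does not give. Peaks reached over the boundary itself at Ccr1 (123968401 to 123968700 on chromosome 9), at Otogl, an inner ear matrix gene (107912251 to 107912550 on chromosome 10), and at the pheromone receptor gene Vmn1r16 (57320701 to 57321000 on chromosome 6). At the 5′ end of Hbb-y, an embryonic beta-like globin gene, a peak lay 107 bp inside, and at Hsd3b3, a steroid dehydrogenase gene, one lay 111 bp outside. Muc16 had a peak 121 bp inside its 5′ boundary and Elavl4 one 212 bp outside. The odorant receptor gene Olfr1008 had one 172 bp from a boundary, and Olfr1135 had one 933 bp beyond its 3′ end. Slco1a4, which encodes an organic anion transporter, and Tcaf3 had peaks 817 and 829 bp outside the 5′ end. At 3′ ends, Zfp770, a zinc finger gene, had a peak at 495 bp, and Ovgp1, an oviduct glycoprotein gene, had one at 628 bp. Kera, a proteoglycan gene of the cornea, Gzmg, a granzyme gene, and Gnai1, which encodes an inhibitory G protein subunit, had theirs at 738, 781 and 985 bp. Of these 16 peaks, that of Hbb-y was the nearest to an MNase peak, at 40.4 kb. Over all windows the lower quartile of this distance was 173 kb, and the autosomes hold 1.18 MNase peaks per Mb. Few positions have one nearer than 40.4 kb, so this does not set the 16 peaks apart.

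No annotated gene of any type covered 653 of the 1144 peaks (57.1%), against 50.2% of all windows, 251 of 502 wider peaks and 42.3% of MNase peaks. A coding gene covered 402 (35.1%, interval 32.4% to 37.9%), a long non-coding RNA gene alone covered 77 (6.73%) and other types 12. Coding genes cover 41.1% of all windows, 42.0% of wider peaks (211 of 502) and 46.5% of MNase peaks. The difference between minimum-width and wider peaks, -6.89 points, passed the test (Fisher's exact test, two-sided, p = 0.00922; adjusted p = 0.0154; odds ratio 0.747, 95% interval 0.5995 to 0.932). By the same exact test it did not pass when the Hox clusters were left out (35.1% against 40.3%, adjusted p = 0.0914) or when neighbouring peaks up to 100 kb apart were merged (35.6% against 40.3%, adjusted p = 0.142). The gene table gives spans only, so exons and introns were not told apart.

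Density was higher far from coding genes than in or near them, as a description with no test. Inside coding genes there were 0.407 minimum-width peaks per Mb (exact 95% Poisson interval 0.368 to 0.449), and up to 10 kb outside there were 0.335 (0.265 to 0.418). From 10 to 50 kb the density was 0.385 per Mb (0.322 to 0.456). It was 0.562 (0.489 to 0.643) from 50 to 200 kb, 0.689 (0.591 to 0.799) from 200 to 500 kb and 0.700 (0.589 to 0.826) beyond 500 kb. The intervals of the last 3 classes lie above those of the first 3. Merging neighbouring peaks changed the first value to 0.382 and the last to 0.640. Wider sonication peaks had 0.213 per Mb inside genes and 0.144 (0.0964 to 0.207) beyond 500 kb. MNase peaks were densest up to 10 kb from genes, at 2.01 per Mb, and had 1.00 beyond 500 kb. The difference between these gradients was not tested. Sequence within assembly gaps was counted as length, apart from the first 3 Mb of each chromosome.

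**Figure D3:**
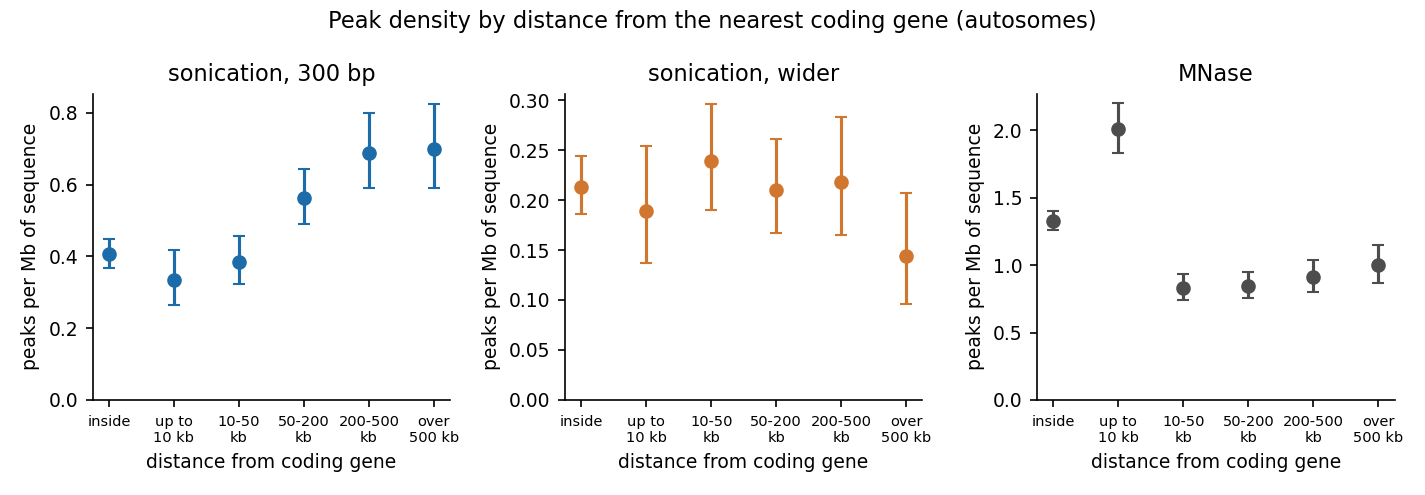
Peaks per Mb of autosomal sequence (y axis, from 0, on a scale of its own in each panel) by distance from the nearest coding gene (x axis), for 300 bp sonication, wider sonication and MNase peaks. Points give the density and lines the exact 95% Poisson interval, and the left panel runs from 0.335 up to 10 kb from genes to 0.700 beyond 500 kb.

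For the 742 peaks outside coding genes the median distance to the nearest one was 149.5 kb (quartiles 39.4 and 384 kb). It was 77.0 kb for wider peaks, 50.8 kb for MNase peaks and 83.1 kb for all windows outside coding genes. In the 1 Mb around a minimum-width peak the median number of coding genes was 3, against 5 for wider peaks, MNase peaks and all windows. No coding gene was centred within that 1 Mb for 194 peaks (17.0%), against 7.97% of wider peaks, 9.87% of MNase peaks and 11.4% of windows. The most remote peak, from 99512701 to 99513000 on chromosome 2, lay 1.88 Mb from Lrrc4c, a synaptic adhesion gene. Others lay 1.64 Mb from Mat2b, 1.56 Mb from Pcdh20 and 1.54 Mb from Cdh9, the last 2 of which encode a protocadherin and a cadherin.

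Within genes, density per unit of length was higher in long genes, again as a description with no test. Genes under 50 kb had 0.275 minimum-width peaks per Mb (interval 0.212 to 0.351), those of 50 to 100 kb 0.327 (0.246 to 0.426) and those of 100 to 200 kb 0.337 (0.258 to 0.432). Genes of 200 to 500 kb had 0.505 (0.415 to 0.608) and genes of 500 kb or longer 0.605 (0.497 to 0.730). The 361 coding genes overlapped had a median length of 184 kb, and all 20560 autosomal coding genes one of 17.6 kb. Any set of peaks meets long genes more often, and the median was 133 kb for the 201 genes with a wider peak and 89.1 kb for the 897 with an MNase peak. Per Mb, wider peaks had 0.207 per Mb in the shortest and 0.189 in the longest class. MNase peaks were densest in genes under 50 kb, at 2.20 per Mb. Along the gene, the 317 peaks in genes of known strand were spread over the whole body: in 5 equal stretches from the 5′ end there were 62, 63, 69, 77 and 46.

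**Figure D4:**
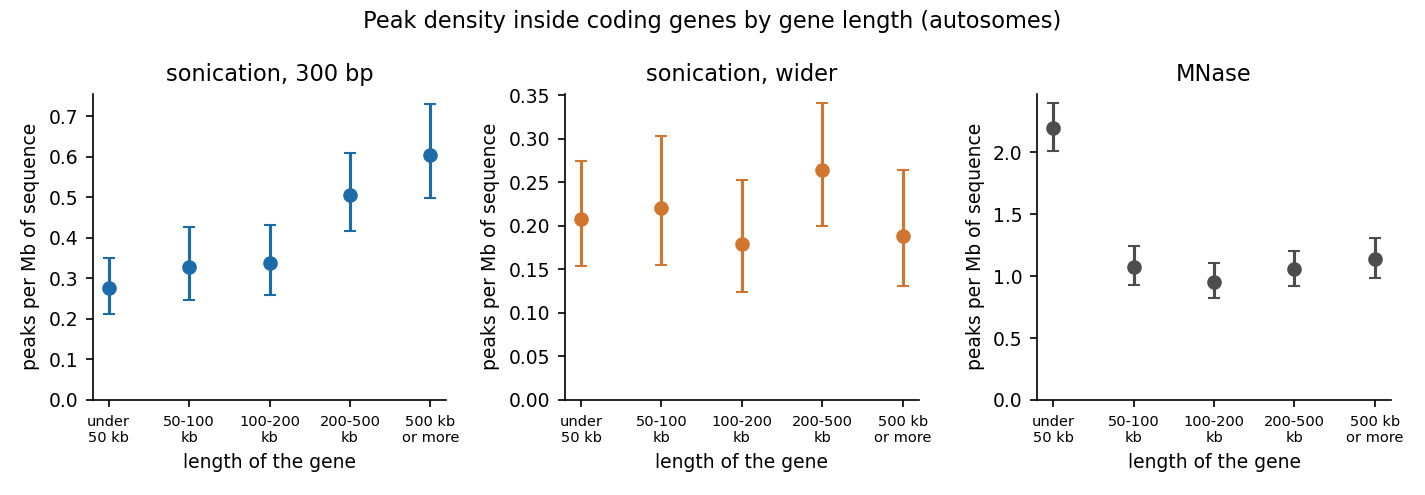
Peaks per Mb inside autosomal coding genes (y axis, from 0, on a scale of its own in each panel) by length of the gene (x axis), for the 3 classes of peak. Points give the density and lines the exact 95% Poisson interval, and 300 bp sonication peaks run from 0.275 in genes under 50 kb to 0.605 in genes of 500 kb or longer.

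Few genes had more than 1 of these peaks: 322 coding genes held 1, 32 held 2, 5 held 3, and 1 each held 4 and 5. The gene with 5 was Nrxn3, which encodes a presynaptic neurexin, from 88722701 to 90334935 on chromosome 12. Its peaks started 85.9, 170.4, 1335.5, 1360.8 and 1389.5 kb from the lower boundary of the gene, so 3 of them lay within 54.3 kb, and the 2 MNase peaks in the gene, at 1082 and 1089 kb, were apart from all 5. Gpc5, a glypican gene, held 4, at 354, 596, 854 and 1008 kb, with 1 wider peak and no MNase peak. Negr1, a cell adhesion gene of the IgLON family, held 3 within 45.8 kb, 641 to 686 kb from its lower boundary, and no other peak. The other genes with 3 were Ppfia2, a scaffold of the presynaptic active zone, Pcdh9, a non-clustered protocadherin, Thsd7b and Fhit. Per Mb of gene, these 7 genes held between 1.86 peaks (Fhit) and 6.47 (Ppfia2).

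Among genes with 2 peaks, the shortest were Prpf39, a splicing factor gene of 27.1 kb, and Gmnc, a regulator of multiciliated cells of 34.4 kb. Adgre4, an adhesion receptor gene of macrophages, Dennd1b, App, which encodes the amyloid precursor protein, the calcium channel subunit gene Cacnb4, Erc1 and Nyap2 followed, with lengths from 104 to 291 kb. Of these 8 genes, Dennd1b held 1 MNase peak and the other 7 held none, and none held a wider sonication peak. Coding genes held 1.33 MNase and 0.2135 wider peaks per Mb. Genes of these lengths would hold few of either, so the counts do not set them apart.

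The list of neuronal adhesion and synapse-organising genes is one of very long genes, some of other roles, such as Sgcz, a sarcoglycan gene. A minimum-width peak lay within 5 kb of 21 of its 43 members, where 1.99% of the 20560 coding genes had one. The median length of the list was 1125 kb. Per Mb of span these genes held 0.690 peaks, against 0.410 for all coding genes and 0.605 for genes of 500 kb or longer. The interval of that last value, 0.497 to 0.730, holds 0.690, so the list is not set apart from long genes. Besides Nrxn3, Gpc5 and Negr1, those with 2 peaks were Cntn4, Csmd1, Ctnna2, Dcc, Ptprd and Robo2. Cntn4 encodes an axonal adhesion molecule, Csmd1 a large complement-control membrane protein, and Ctnna2 a neuronal catenin. Dcc and Robo2 encode axon guidance receptors and Ptprd a receptor phosphatase of synapses. In the same list, wider sonication peaks lay at 9 members (background 1.12% of coding genes) and MNase peaks at 27 (background 5.58%). Gene length was not matched in these counts. Of the glutamate and GABA receptor genes, 3 of 25 had a narrow peak: Gria4 and Grm5 had 1 each and Grm7 had 2, the list holding 0.370 per Mb of span. Of 22 cadherins and non-clustered protocadherins only Pcdh9 had one.

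Hox, clustered protocadherin and imprinted genes, groups with known Smchd1 targets, had 0 to 2 members with a minimum-width peak. A list of developmental regulators, not taken as targets, is given beside them. With 1.99% of all coding genes as background, these small lists do not show a scarcity. Hox genes, which pattern the body axis, had 0 of 39 members with one within 5 kb, whereas 25 had a wider sonication peak and 38 an MNase peak. No narrow peak lay in any Hox cluster. The 4 clusters make up 0.0205% of the autosomal length, where the overall density would place 0.234 narrow peaks, so a count of 0 does not set them apart. By the usual limit of 3 counts for a count of 0, 0 of 1144 allows a share of up to 0.262%, and the Wilson upper limit is 0.335%. Clustered protocadherins had 0 of 58 with a narrow peak, 0 with a wider one and 14 with an MNase peak. Developmental regulators had 0 of 30, 0 and 13 in the same order. Of the 45 imprinted genes found on autosomes, 2 had a narrow peak (4.44%). At Kcnk9 it ran from 72552001 to 72552300 on chromosome 15, 3.39 kb from the gene, and was distinct from the shared peak described above. At Sgce, which encodes a sarcoglycan, it ran from 4695451 to 4695750 on chromosome 6, inside the gene. Snrpn, the splicing protein gene of the Prader-Willi region, had 2 wider peaks and 5 MNase peaks but no narrow one.

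Chemosensory receptor genes, which lie in large clusters, had a narrow peak within 5 kb at 11 of 1419 olfactory members (0.775%) and at 4 of 616 vomeronasal members (0.649%), counting pseudogenes. Both shares were below the 1.99% of coding genes, but the members are short, with medians of 0.945 and 0.939 kb. Per Mb of their span, olfactory members held 1.23 narrow peaks (3 peaks in 2.44 Mb) and vomeronasal members 0.176 (1 peak in 5.70 Mb). All coding genes held 0.410. No interval was computed for these densities, and counts this small do not establish an order. Olfr1008, Olfr1135, Olfr19, Olfr440-ps1, Vmn1r16, Vmn1r25, Vmn1r69 and Vmn2r18 were among them. Marker genes of neural stem cells (22 on autosomes), of neurons and glia (10) and housekeeping genes (18) had no narrow peak within 5 kb, in lists too short to differ visibly from 1.99%. MNase peaks were near 3, 3 and 2 of these.

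Most of the narrow peaks had no other sonication peak within 100 kb. The spacing of evenly scattered peaks was not computed, so whether narrow peaks cluster or keep apart was not tested. The nearest other sonication peak of any width was a median of 0.431 Mb away, and 206 of 1144 (18.01%) had one within 100 kb, against 99 of 502 wider peaks (19.7%). That difference, -1.71 points, did not pass the test (Fisher's exact test, two-sided, p = 0.409; adjusted p = 0.409; odds ratio 0.894, 95% interval 0.680 to 1.18). Without the Hox clusters it changed sign, to 18.01% against 15.7% (Fisher's exact test, adjusted p = 0.351). It passed the exact test with wider peaks limited to at least 600 bp (18.01% against 28.96%, adjusted p = 0.00144). With neighbouring peaks merged, only neighbours of the other width remain by construction. The counts were then nearly equal, 48 of 1061 narrow and 47 of 467 wider peaks. The shares (4.52% against 10.06%, Fisher's exact test, adjusted p = 0.000126) therefore differ through class size, and this setting cannot compare spacing. When chained with gaps of up to 100 kb, 986 narrow peaks were single, 68 chains held 2, 6 held 3 and 1 held 4. The chain of 4 spanned 104 kb, from 84897451 to 85001550 on chromosome 13, in the predicted genes Gm34196 and Gm4059 and 188 kb from Ccnh, a cyclin gene. The chains of 3 were in Nrxn3, in Negr1, at Adgre4, at 4930405D01Rik, at 4930522H14Rik, and 178 kb from Sema3d, an axon guidance gene. A single MNase peak lay inside these 7 chains, in the one near Sema3d, and no wider sonication peak did. The chains span 45.75 to 144.9 kb each, and the autosomes hold 1.18 MNase and 0.209 wider peaks per Mb. These counts therefore do not set the chains apart. Only 20 narrow peaks lay within 2 kb of another, among them neighbours in Unc5d, a netrin receptor gene, and in Dennd1b.

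All 19 autosomes carried these peaks, at 0.476 per Mb overall (interval 0.449 to 0.504). Density ran from 0.311 per Mb on chromosome 11 (37 peaks, interval 0.219 to 0.429) and 0.325 on chromosome 8 to 0.605 on chromosome 18 and 0.610 on chromosome 16 (58 peaks, interval 0.463 to 0.789). Chromosomes 11 and 7, with 13.5 and 14.2 coding genes per Mb the richest in genes, had 0.311 and 0.379 peaks per Mb. Across the 19 chromosomes the density of narrow peaks was lower where that of coding genes was higher (Pearson's r = -0.61, Spearman's rho = -0.63), as a description of 19 points that share the same libraries. The values were -0.35 and -0.35 for wider peaks and -0.03 and -0.12 for MNase peaks. Chromosome 12 departed from this order, with 5.79 coding genes and 0.402 narrow peaks per Mb.

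**Figure D5:**
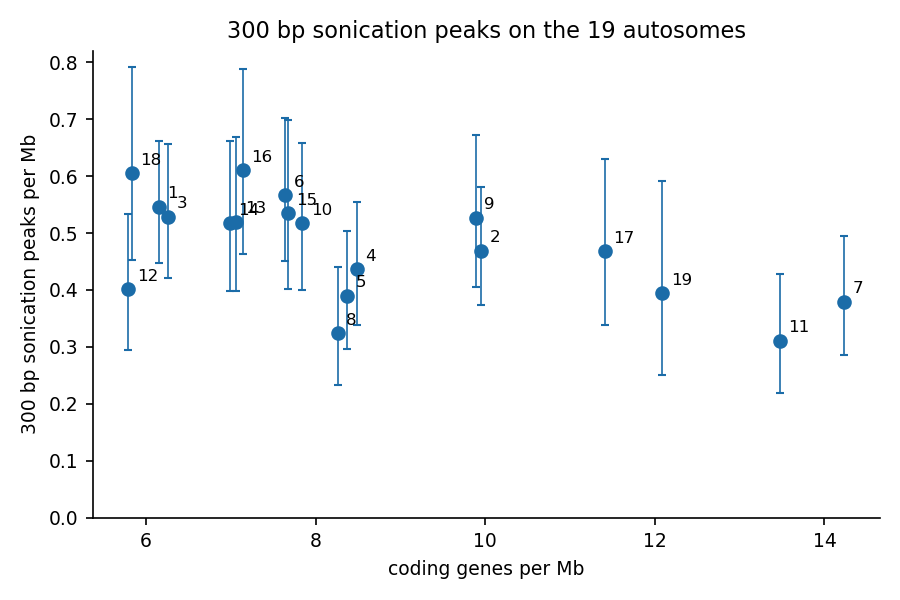
Density of 300 bp sonication peaks (y axis, per Mb) against density of coding genes (x axis, per Mb) on the 19 autosomes, each labelled with its number. Points give the density and lines the exact 95% Poisson interval, and chromosomes 11 and 7, with the most genes per Mb, have 0.311 and 0.379 peaks per Mb.

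The X held 319 peaks of the same width, 1.90 per Mb (interval 1.70 to 2.12) against 0.476 on the autosomes. Peaks of 300 bp made up 58.1% of the 549 X peaks. A coding gene covered 121 of the 319 X peaks (37.9%) and 402 of the 1144 autosomal ones (35.1%). The difference, -2.79 points, did not pass the test (Fisher's exact test, two-sided, p = 0.356; adjusted p = 0.409; odds ratio 0.887, 95% interval 0.681 to 1.16). Without X peaks in Dmd, Eda and Il1rapl1, 3 long genes, the X share was 33.8% and the difference changed sign. All peaks left out lay in coding genes and no autosomal gene was left out. By construction this setting could only lower the X share, so the change of sign cannot compare X and autosomes. Coding genes cover 27.1% of the length of the X and 40.9% of that of the autosomes, so the X share lay above its coverage and the autosomal share below, a contrast that was not tested itself.

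The authors' list has 2 broad domains on autosomes, and neither held a minimum-width peak. The domain of 0.385 Mb on chromosome 12, from 20075001 to 20460000, and that of 1.43 Mb on chromosome 13, from 65450001 to 66880000, contained 0 narrow and 0 wider sonication peaks, and the second contained 1 MNase peak. At the overall density these stretches would hold 0.183 and 0.681 narrow peaks, so the counts of 0 do not set them apart. The nearest narrow peak was 3103.4 kb away on chromosome 12, near Rock2, a kinase gene of the cytoskeleton, and 2171.6 kb away on chromosome 13, near Adcy2, an adenylate cyclase gene.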

How the data were processed

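The authors deposited 1 peak list per experiment and 1 list of broad domains. Per the submitters' processing notes, bcl2fastq, Bowtie 0.12.9, MACS2 and build mm10 were used, without role or order; the sources used here do not state how libraries were combined. Only start and end positions were used, since the deposited value column holds no values; entries of the MNase list name SeqMonk. The authors' deposited score per domain has no stated scale and is not reported. Genes and promoters came from RefSeq on GRCm38.p6, the assembly of mm10; 340 gene records in the first 3 Mb of chromosomes were left out, length ran from there to the last gene or peak, and promoters of chromosome 18 are not analysed here.

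Overlap meant at least 1 bp. All 300 bp windows on the 150 bp grid were counted as background. Shares have 95% Wilson intervals, densities exact Poisson intervals, and 5 comparisons used Fisher's exact test (scipy 1.17.1) with Benjamini-Hochberg adjustment and a threshold of 0.05. Overlap functions were tested on simulated data, where all 200 planted overlaps were found. Peaks in 12 gene lists were counted.

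Genes were named by rule: most peaks, boundaries within 1 kb, MNase overlap, longest chains (the 8 largest, of which those with 3 or more peaks are given), and up to 4 members of each list; further members, remote peaks and close neighbours were chosen after their values were seen. The peaks, lists and tests were chosen with earlier results of these data known.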

Additional observations from a re-analysis of the deposited data

How the results depend on the processing

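Differences are given in percentage points, minimum-width minus comparison peaks. Of 25 alternatives to the 5 comparisons, 19 kept the direction and the side of the threshold. Each alternative was adjusted beside the main p-values of the other tests. The overlap with MNase peaks and the distance to coding boundaries kept both in all their alternatives under that adjustment. For coding boundaries without the Hox clusters the adjusted p was 0.0457 (Fisher's exact test), close to the threshold. Adjusting all tests of that setting together would be stricter and was not run, so this call and the count of 19 rest on the mixed adjustment. The coding gene difference no longer passed without the Hox clusters (-5.15) or with neighbours merged (-4.63). The difference in neighbours within 100 kb passed with wider peaks limited to at least 600 bp (-10.95), and it reversed without the Hox clusters (2.35). It also passed with neighbours merged (-5.54). Only neighbours of the other width then remain by construction, so that value follows from the sizes of the classes and cannot compare spacing. The autosome and X difference reversed without Dmd, Eda and Il1rapl1 (1.36), failing the test either way. That setting removed only X peaks inside coding genes, so by construction it could only lower the X share. Where not stated, the cause was not tested. Taking only the central 300 bp of wider peaks was chosen after seeing the data and changed no call.

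No paired analysis was possible because each experiment has 1 peak list with no column per library, so no replicate was paired or left out. A stricter threshold of the authors was not run: the peaks carry no score, and a larger width leaves none of them. Depth is unknown; the number of peaks limits the precision, most of all for the 3 shared with MNase.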
